A study of Mus musculus with 3 samples.

Results

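The cells described here are mouse endothelial cells of bladder assembloids that carried transcripts of Apln or Pgf, ligands known from the tips of growing vessels. A cell was a member when Pecam1, Cdh5 and Egfl7 together reached 5 UMIs per 10,000 and 3 UMIs, Apln and Pgf together reached 3 per 10,000, and Col1a1 and Col1a2 stayed under 50 per 10,000. There were 694 members among 23925 mouse cells kept in the 3 libraries. The 7-day assembloids held 295 of 8374 cells and the 1-day assembloids 399 of 8538. The members were chosen by the measured UMIs of these genes, so the levels of Apln and Pgf, and of the other genes of the rule, are given as a description and nothing is drawn from them.

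Single cells were captured after enzymatic dissociation with a 3′ kit that counts molecules by unique molecular identifiers (UMIs). The groups were assembloids at 7 days of reconstitution (a pool of 3), assembloids at 1 day (a pool of 3), and bladders of wild-type C57BL/6 mice aged 8 to 9 weeks (a pool of 8). Assembloids are bladder-like tissues put together from separate cell types, and the labels used here do not name their cell sources, the strain of their mouse cells or a treatment. Each group was 1 library, so no test between groups was possible, and every interval below is a 95% interval that covers counting error only.

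In a growing vessel, leading tip cells follow VEGF and carry Dll4, a ligand that acts on Notch in the stalk cells behind them and restrains them from becoming tips. Apelin, the product of Apln, acts on the receptor Aplnr, and placental growth factor, the product of Pgf, binds the VEGF receptor Flt1. Resting bladder capillaries are instead known for genes of lipid uptake, such as Fabp4 and Gpihbp1, the protein that holds lipoprotein lipase on the capillary wall.

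The 3 libraries held 120301672 UMIs (7-day), 135955678 (1-day) and 93560608 (bladder). Members had a median of 9865 UMIs in the 7-day library and 9682 in the 1-day library, so their depth was alike, against 5639 in the 913 bladder cells used as blood vessel endothelium. These bladder cells met the endothelial and collagen limits and had under 3 UMIs of the lymphatic genes Prox1, Lyve1 and Mmrn1 together. This lymphatic limit was not put on the members. At least 3 such UMIs were in 19 of 295 7-day members (6.44%) and 10 of 399 1-day members (2.51%). The part of this unlike limit in the contrasts with bladder was not tested. The 7-day and 1-day libraries shared 114 barcodes, the 7-day and bladder libraries 30, and the 1-day and bladder libraries 21, and no barcode was a member in both assembloid libraries. Scrublet called 9 of the 295 7-day members (3.05%) and 23 of the 399 1-day members (5.76%) doublets, and both were kept in the values below.

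The 7-day library was mixed in its endothelium, and the members were not spread evenly over it. Among its 901 endothelial cells, 525 (58.3%) had bladder cells as at least 95% of their 30 nearest endothelial neighbours from the bladder and 1-day libraries. Whether these were assembloid cells that resembled bladder or cells of bladder origin in the library cannot be told apart, which bears on each share of 7-day endothelial cells and each contrast with the other 7-day endothelial cells. Another 346 had at most 5% bladder neighbours and are called near the 1-day library. Of the 295 7-day members, 273 (92.5%, 88.9 to 95.3) were near the 1-day library and 22 (7.46%) were not. Results that rest on those 22 cells are given with and without them. Apln, Pgf and the other genes of the rule were not left out when neighbours were found. Each share of members near the 1-day library is therefore a description, and the part of the rule's genes in it was not tested. Xist, the RNA of the inactive X chromosome, also set the ages apart, with a UMI in 1 of 295 7-day members (0.339%) and in 97 of 399 1-day members (24.3%). Over all kept mouse cells the shares with an Xist UMI were 7.74% at 7 days, 28.2% at 1 day and 0.157% in bladder. The mouse cells of both ages therefore differed in their mix of sexes, and age and source cannot be told apart.

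Members were 3.52% of 7-day mouse cells (3.14 to 3.94) and 4.67% of 1-day mouse cells (4.24 to 5.14). As a share of endothelial cells, the ages lay further apart, with 32.7% (29.7 to 35.9) at 7 days and 84.2% (80.6 to 87.3) at 1 day. Counted only over cells near the 1-day library, members were 273 of 346 7-day endothelial cells (78.9%, 74.2 to 83.1). With neighbours taken among all mouse cells in place of endothelial cells, 4468 7-day cells were near the 1-day library and 269 of them were members (6.02%, 5.34 to 6.76), a share above that at 1 day. The order of the ages thus turned with the cells used as the denominator. In bladder, 35 of 7013 mouse cells (0.499%) and of 1121 endothelial cells (3.12%) met the rule, and 29 of those 35 had at least 3 lymphatic UMIs. These shares are of cells recovered after dissociation, and a change in members and a change in the other cells cannot be told apart.

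**Figure D1:**
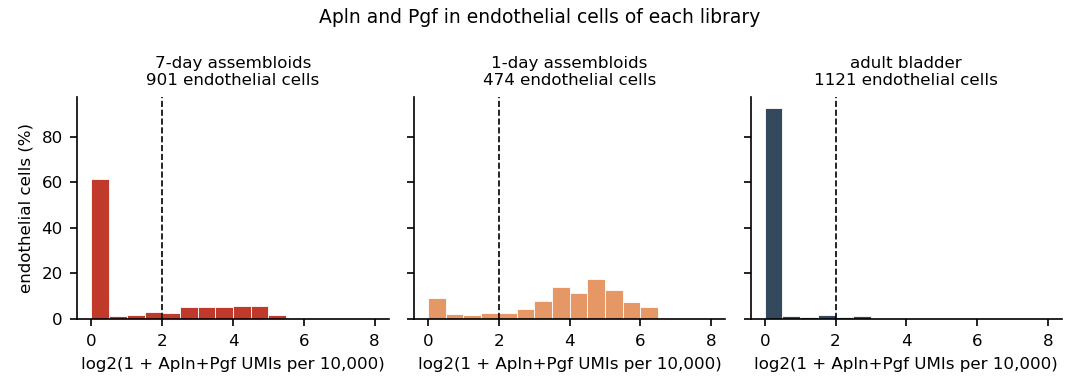
Share of endothelial cells (%) in bins of log2(1 + Apln and Pgf UMIs per 10,000), with the 7-day library on the left, the 1-day library in the middle and bladder on the right; the dashed line is the limit of 3 per 10,000. Of the 7-day endothelial cells 547 had 0 UMIs of both genes, against 43 of the 1-day ones, and 1086 of the 1121 bladder cells lay left of the line.

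The limit cut through few cells. Between 3 and 4 per 10,000 there were 10 members at 7 days and 6 at 1 day, and between 2 and 3 per 10,000, just outside, 23 and 11 cells. The lowest members had 3.13 per 10,000 at 7 days and 3.03 at 1 day, and the highest cells outside had 2.99 and 2.91. The median member had 13.2 per 10,000 at 7 days and 22.1 at 1 day.

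The markers named for these cells were Apln, Pgf, Cdh5, Dll4 and Gpihbp1. Apln lies on chromosome X at 48025146 to 48034853 in mm10, and summed over cells it had 829.8 UMIs per 1000000 mouse UMIs of the group (CPM) in 7-day members, 1089.7 CPM in 1-day members and 0.627 CPM in bladder blood endothelium. Pgf, on chromosome 12 at 85166635 to 85177790, had 760.2 CPM in 7-day members, 1464 CPM in 1-day members and 8.78 CPM in bladder. Cdh5, the cadherin of endothelial junctions, was at a like level in every group, with 966 CPM, 710.2 CPM and 729 CPM in the same order. The other 2 markers, which the rule did not use, set the members apart from the bladder less clearly. Dll4, on chromosome 2 at 119325784 to 119335962, had 142 CPM (129.6 to 156) in 7-day members, 45.7 CPM (39.6 to 52.5) in 1-day members and 145 CPM (136 to 155) in bladder. Gpihbp1, on chromosome 15 at 75596628 to 75599481, had 288 CPM (270.1 to 307) in 7-day members, 43.0 CPM (37.0 to 49.6) in 1-day members and 310.0 CPM (296 to 324) in bladder. Neither gene was above bladder at either age, and in 1-day members both were below it. No readout of vessel growth was part of these data. The cells are therefore called Apln/Pgf endothelial cells, or members.

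**Figure D2:**
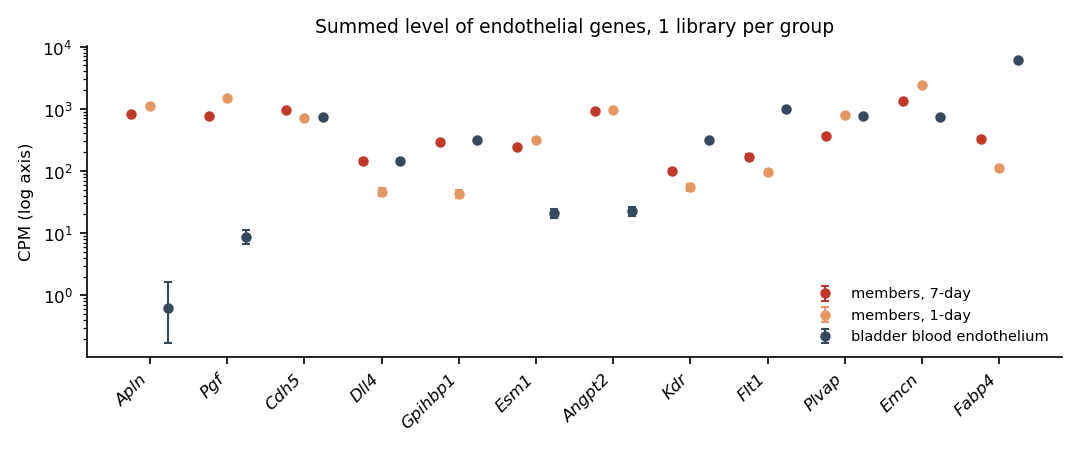
CPM on a log axis for 12 genes, each summed over the cells of 1 library, with 7-day members on the left, 1-day members in the middle and bladder blood endothelium on the right of each gene; bars are exact 95% Poisson intervals, often smaller than the points. Esm1 and Angpt2 were over 10-fold above bladder at both ages, while Dll4 and Gpihbp1 in 7-day members sat at the bladder level and in 1-day members below it.

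Dll4 and genes that Notch is known to switch on differed with age. The 7-day members had 3.11-fold the Dll4 level of 1-day members (log2 ratio 1.64, 1.40 to 1.89). Nrarp, a Notch target that limits Notch signalling, had 98.9 CPM in 7-day members, 32.7 CPM in 1-day members and 69.1 CPM in bladder. Hey1, a Notch-induced repressor of arterial cells, had 20.6 CPM, 4.80 CPM and 114 CPM, and Hes1, another such repressor, 97.3 CPM, 42.7 CPM and 308 CPM in the same order. All 4 were over 2-fold higher at 7 days, and the 7-day level of Hey1 and Hes1 stayed well below that of bladder. Across all 6105 genes with at least 20 CPM at either age, 136 (2.23%) were at least 2-fold higher and 62 (1.02%) at least 2-fold lower in 7-day members. Of the 9 measured Notch genes, 4 were higher and 0 lower, with a median log2 ratio of 0.78, against 0.01 over all genes measured. Without the 22 cells, 111 genes (1.83%) were higher and 76 (1.25%) lower of 6069, the Notch count was also 4 of 9 and the log2 ratio of Dll4 was 1.64 again.

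The difference in Dll4 was also seen in cells thinned to an equal depth of 5000 UMIs. There, 108 of 254 7-day members (42.5%, 36.4 to 48.9) had a Dll4 UMI, against 63 of 354 1-day members (17.8%, 14.0 to 22.2), and 210 of 517 bladder cells (40.6%). Unthinned, the shares were 58.6% at 7 days and 33.8% at 1 day. The thinning left out 41 shallower 7-day members and 45 shallower 1-day members. Among 1000 cells with no endothelial UMI, drawn from each library and thinned alike, 1 of the 7-day cells and 0 of the 1-day cells had a Dll4 UMI, and their median depths were 16152 and 16876 UMIs. With a floor of 3 counts, 0 of 1000 cells allows a share of cells with a Dll4 UMI of up to 0.300%, which does not limit the cells that express it. Nrarp was less confined to endothelium. A UMI of it was in 10.0% of these 7-day and 4.70% of these 1-day cells, against 39.0% and 13.8% of thinned members. The part of free RNA in the levels of Nrarp, Hey1 and Hes1 was not tested.

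Several capillary genes also stood higher at 7 days. Gpihbp1 was 6.71-fold higher in 7-day than in 1-day members (log2 ratio 2.74, 2.52 to 2.98). Sparcl1, a matrix-associated protein of quiet vessels, had 279 CPM in 7-day members, 59.2 CPM in 1-day members and 1212 CPM in bladder. Fabp4, a fatty acid binding protein of capillaries, had 329 CPM, 111 CPM and 6090.1 CPM in the same order. Both were higher at 7 than at 1 day and remained far below bladder, by 4.34-fold and 18.5-fold in 7-day members. Of the 8 capillary and lipid uptake genes measured, 4 were higher and 1, Plvap, was lower, with a median of 0.98. The whole list moved less, with a sum of 1596 CPM in 7-day and 1228 CPM in 1-day members. Its median per cell was 11.3 UMIs per 10,000 at 7 days and 8.98 at 1 day. Plvap, which forms the diaphragms of fenestrated vessels, had 364 CPM in 7-day members, 792 CPM in 1-day members and 777 CPM in bladder. Of 9 arterial genes measured, 4 were higher (Gja4, Gja5, Fbln5 and Hey1) and 0 lower, with a median of 0.96. Hey1 was also counted in the Notch list. Summed over the list, arterial genes were nearly level, with 1477 CPM in 7-day and 1448 CPM in 1-day members. Their median per cell was 13.6 and 13.4 UMIs per 10,000, so the count did not reflect the level of the whole list. Without the 22 cells, 3 of 8 capillary genes and 3 of 9 arterial genes were higher, since Rgcc and Gja4 were then under 2-fold.

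Gpihbp1 was not evenly spread over the members. After thinning, 72 of 254 7-day members (28.3%, 22.9 to 34.3) had a UMI of it, against 32 of 354 1-day members (9.04%, 6.27 to 12.5), and 178 of 517 bladder cells (34.4%). Unthinned, the shares were 38.0% at 7 days and 48 of 399 at 1 day. Per cell the median was 0 at both ages, and the 90th percentile was 10.2 UMIs per 10,000 at 7 days and 0.711 at 1 day. In the non-endothelial cells of the same libraries Gpihbp1 had 0.952 CPM at 7 days and 0.00782 CPM at 1 day. Sparcl1 and Fabp4 were also in non-endothelial cells, with 186 and 69.2 CPM at 7 days and 88.2 and 48.4 CPM at 1 day, and the part of free RNA in their levels was not tested.

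**Figure D3:**
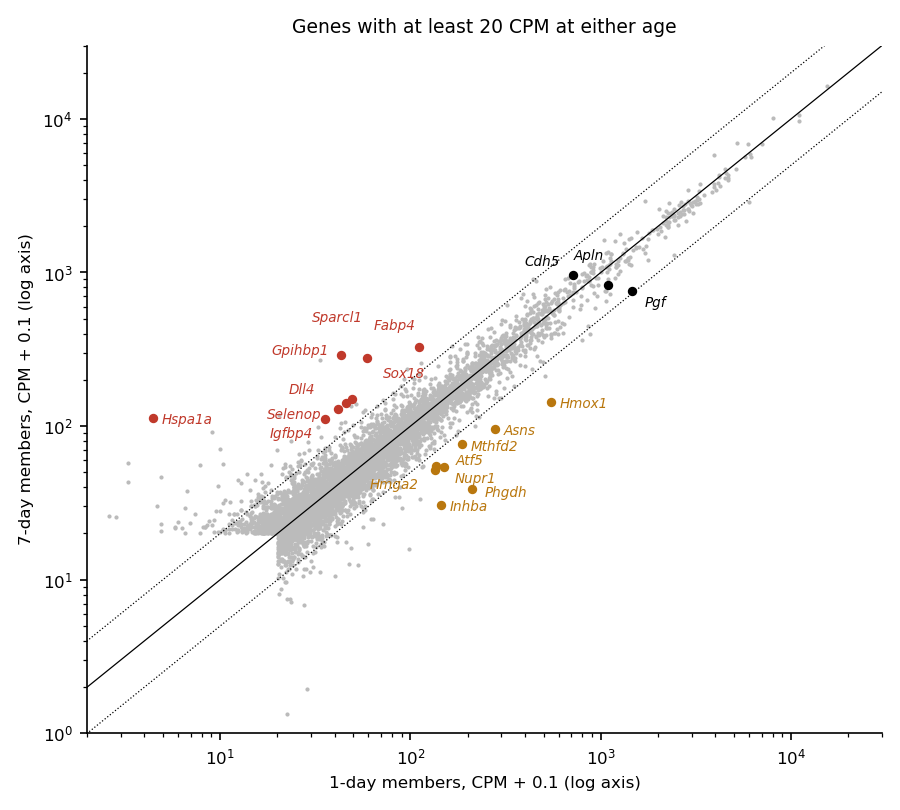
Each point is a gene with at least 20 CPM at either age, with its CPM + 0.1 in 7-day members (vertical, log axis) against 1-day members (horizontal, log axis); the solid line marks equal levels and the dotted lines a 2-fold difference. Named in red are the 8 highest and in brown the 8 lowest ratios of genes with at least 100 CPM, and Gpihbp1, Sparcl1, Dll4, Sox18 and Fabp4 stand above the band while Phgdh, Inhba and Hmox1 stand below it.

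The 8 highest log2 ratios of 7-day over 1-day members, among genes with at least 100 CPM, were those of Hspa1a, Gpihbp1, Sparcl1, Selenop, Dll4, Igfbp4, Sox18 and Fabp4. Sox18, a transcription factor of endothelial cells, had 149.7 CPM in 7-day members, 49.1 CPM in 1-day members and 131 CPM in bladder. Stc1, a secreted glycoprotein looked at after its values were seen, had 56.4 CPM, 10.3 CPM and 40.9 CPM. In both genes the 7-day level was near that of bladder and the 1-day level under it. The 7-day level of Hspa1a, a heat shock protein, rested largely on the 22 cells, though the ratio was past 2-fold without them too. Hspa1a had 113 CPM in 7-day members, 27.3 CPM in those near the 1-day library, 4.34 CPM in 1-day members and 3792 CPM in bladder. Its near-identical neighbour Hspa1b can share its reads, so the value of either gene is uncertain.

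The 22 7-day members not near the 1-day library carried transcripts of other cell types. They had 1419.7 CPM of Mmrn1 and 695 CPM of Lyve1, both lymphatic, against 13.7 and 50.5 CPM in the 273 members near the 1-day library. The 10 urothelial markers summed to 5539.7 CPM in the 22 cells, with 9 at 20 CPM or more, against 90.6 CPM with 1 at 20 CPM or more in the 273 cells. Apln had 29.8 CPM and Pgf 566 CPM in the 22 cells, against 855 and 766 CPM in the 273 cells, so these cells met the rule mainly through Pgf. In all 7-day members the urothelial markers summed to 259.7 CPM, against 185 CPM in 1-day members.

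**Figure D4:**
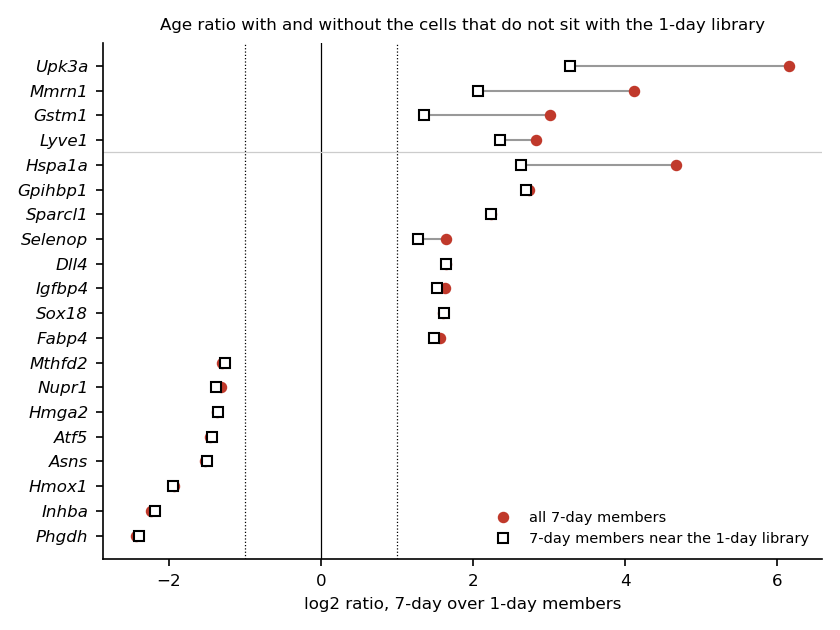
Log2 ratios of 7-day over 1-day members for the 8 highest and 8 lowest genes and, above the grey line, for Upk3a, Mmrn1, Gstm1 and Lyve1, which were chosen after their values were seen; filled circles use all 295 7-day members and open squares the 273 near the 1-day library, and dotted lines mark 2-fold. The squares sit on the circles for the lower genes and for Dll4, Sparcl1 and Sox18, and move towards 0 for Hspa1a, Selenop and the 4 genes above the line.

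The 8 lowest log2 ratios of 7-day over 1-day members, again among genes with at least 100 CPM, were those of Phgdh, Inhba, Hmox1, Asns, Atf5, Hmga2, Nupr1 and Mthfd2. Phgdh, the first enzyme of serine synthesis, had 38.8 CPM (32.3 to 46.2) in 7-day members, 211 CPM (198 to 225) in 1-day members and 0.941 CPM in bladder. The 7-day level was 5.44-fold below the 1-day level. Asns, asparagine synthetase, had 96.1 CPM, 279 CPM and 15.2 CPM in the same order. Mthfd2, a mitochondrial folate enzyme, had 75.8 CPM, 186 CPM and 5.80 CPM. The stress-induced regulators Atf5 and Nupr1 had 53.9 and 54.5 CPM in 7-day members, against 149 and 136 CPM in 1-day members and 28.1 and 68.0 CPM in bladder. None of the lists holds serine synthesis or amino acid stress, so no count over such a group is given. Psat1, Chac1, Trib3 and Shmt2, which were picked after their values were seen and support nothing, were lower by 2.51-fold, 4.27-fold, 2.54-fold and 2.19-fold. Atf4, a factor known to respond to amino acid shortage, had 285 CPM in 7-day members, 399 CPM in 1-day members and 511 CPM in bladder.

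The same transcripts were abundant around the members. In non-endothelial cells Phgdh had 197 CPM at 7 days and 280.1 CPM at 1 day, Asns 157 and 201 CPM, and Atf5 262 and 303 CPM, so each was nearer between the ages there than in members. After thinning, a Phgdh UMI was in 29 of 254 7-day members (11.4%) and in 174 of 354 1-day members (49.2%). In cells with no endothelial UMI the shares were 38.0% at 7 days and 52.7% at 1 day, at or above those of members. Those cells may express Phgdh themselves, so their shares do not measure background. The part of free RNA in the summed levels was not tested.

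Asns and Nupr1 held the amino acid response element, a motif known to be bound by Atf4, in the 250 bases before their RefSeq starts, and are shown as 30 bases around it. Of those 250 bases, 45 for Asns and all 250 for Nupr1 lie in exons of the GENCODE annotation. Sequences are the gene strand from RefSeq on GRCm38.p6, read 5′ to 3′ in lower case with the motif TGATGNAA, on either strand, in capitals. In Asns it began 23 bases before the transcript start and in Nupr1 110 bases before it.
Asns, chr6:7693214-7693243, minus strand: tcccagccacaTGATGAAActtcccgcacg
Nupr1, chr7:126625562-126625591, minus strand: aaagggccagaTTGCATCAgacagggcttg
Of the 8 lowest genes 7 had a promoter entry, and 2 of the 7 held the motif within 250 bases before the start of any entry. Over all 32851 promoter entries, 1134 held it (3.45%). The first count is of genes, which can have several entries, and the second of entries, so they are in unlike units. A match is a description of the letters and not a measured site.

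Hmox1, heme oxygenase, had 144 CPM in 7-day members, 549 CPM in 1-day members and 711 CPM in bladder. Inhba, a subunit of activin, had 30.5 CPM, 145 CPM and 0.314 CPM, and Hmga2, a chromatin protein of fetal and growing cells, had 51.4 CPM, 134 CPM and 0 UMIs in bladder. Against the floor of 3 counts over the bladder cells, Hmga2 was at least 109-fold higher in 7-day members and at least 284-fold higher in 1-day members. In non-endothelial cells Inhba had 477 CPM at 7 days and 658 CPM at 1 day, and Hmga2 264 and 305 CPM, so both were higher around the members than in them. Timp1, an inhibitor of matrix proteases, had 210.4 CPM in 7-day members, 507 CPM in 1-day members and 9.09 CPM in bladder, and 1499 and 3332 CPM in non-endothelial cells at 7 days and 1 day.

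Most other programmes lay close together at the 2 ages. Of 21 measured tip cell genes, 3 were higher (Cxcr4, Igfbp3 and Dll4) and 0 lower, with a median of 0.30. Esm1 and Angpt2, secreted proteins of tip cells, had 239 and 916 CPM in 7-day members, against 318 and 939.6 CPM in 1-day members. Of 18 hypoxia and glycolysis genes 1 was higher and 0 lower, and of 13 basement membrane genes none was past 2-fold in either direction, with a median of 0.50. The receptors Kdr and Flt1 had 97.9 and 169.7 CPM in 7-day members, against 54.8 and 94.4 CPM in 1-day members, and none of the 7 VEGF genes measured was past 2-fold. None of 10 measured G2/M genes and none of 11 S phase genes was past 2-fold. After thinning, 25 of 254 7-day members (9.84%, 6.47 to 14.2) and 35 of 354 1-day members (9.89%, 6.98 to 13.5) had at least 5 UMIs of G2/M genes, against 13 of 517 bladder cells (2.51%, 1.35 to 4.26). Free RNA enters these counts too, and its part was not tested.

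The age differences were also computed in cells with a UMI of a Y-linked gene and none of Xist, an alternative added after the data were seen. In those 217 7-day and 206 1-day members, 136 genes (2.23%) were higher and 78 (1.28%) lower by 2-fold or more. Dll4 had 146 CPM at 7 days and 46.7 CPM at 1 day there, Gpihbp1 295 and 42.7 CPM, Phgdh 39.8 and 214 CPM, and Hmox1 148 and 448 CPM. The log2 ratio of Hmox1 was -1.59 there and -1.93 over all members, and those of the other 3 genes moved by under 0.1. At 1 day the 97 members with an Xist UMI had 28.1 CPM of Dll4 and 14.1 CPM of Gpihbp1, both under the level of the 1-day cells with a Y UMI and none of Xist.

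Against bladder blood endothelium the members differed widely. In 7-day members 1426 of 6844 genes (20.8%) were at least 2-fold higher and 1380 (20.2%) lower, and in 1-day members 1661 of 6946 (23.9%) were higher and 1604 (23.1%) lower. Both comparisons use the same bladder cells, so they are set side by side only, and culture, cell source and dissociation of fresh tissue cannot be told apart. Angpt2, which loosens vessels by acting on the receptor Tek, had 916 CPM in 7-day members, 939.6 CPM in 1-day members and 22.3 CPM in bladder, or 41.1-fold and 42.2-fold the bladder level. Esm1 was 11.4-fold higher in 7-day and 15.2-fold higher in 1-day members. Ccl2, a chemokine for monocytes, had 1209 CPM in 7-day members, 1390.4 CPM in 1-day members and 2.20 CPM in bladder, while non-endothelial cells had 183 CPM at 7 days and 73.4 CPM at 1 day. Nox4, an oxidase that makes hydrogen peroxide, had 107 CPM, 66.9 CPM and 0.784 CPM, and Kit, the receptor for stem cell factor, had 112 CPM, 66.0 CPM and 2.67 CPM in the same order. AA467197, also among the 8 highest in both comparisons, had 630.5 CPM, 581 CPM and 0.941 CPM.

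Many tip cell genes stood above bladder, while the VEGF receptors Kdr and Flt1 stood below it. Of 22 measured tip cell genes, 15 were higher and 2 lower in 7-day members (median 1.54, against 0.12 over all genes), and of 21, 10 were higher and 3 lower in 1-day members (median 0.91, against 0.13). Apln and Pgf are in that list and chose the cells. Over all genes measured, 20.8% were higher and 20.2% lower in 7-day members, and 23.9% were higher and 23.1% lower in 1-day members. Kdr, the main signalling receptor of VEGF, had 97.9 CPM in 7-day members, 54.8 CPM in 1-day members and 311 CPM in bladder, and Flt1 had 169.7 CPM, 94.4 CPM and 1001 CPM. Aplnr, the apelin receptor, had 2.77 CPM, 3.20 CPM and 80.6 CPM. Of 9 VEGF ligands and receptors, 2 were higher (Pgf and Flt4) and 6 lower in 7-day members, and 1 was higher (Pgf) and 5 lower in 1-day members. Pgf chose the members, so its place among the higher genes was set by the rule. Flt4 is also in the lymphatic list, and cells with lymphatic UMIs were left out on the bladder side only. The receptors of Angpt2 went the same way. Tek had 59.8 CPM in 7-day members, 35.6 CPM in 1-day members and 191 CPM in bladder, and its partner Tie1 had 124 CPM, 92.1 CPM and 256 CPM. Of 13 axon guidance cues and receptors, which steer growing vessels, 0 were higher and 5 lower in 7-day members and 8 lower in 1-day members. Notch4, a Notch receptor of endothelial cells, was the 1 Notch gene past 2-fold higher at 7 days, with 98.6 CPM, 59.9 CPM and 42.3 CPM.

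Glycolytic and cell division genes, which the rule did not use, stood mostly above bladder. Of 19 hypoxia and glycolysis genes, 13 were higher and 2 lower in 7-day members (median 1.93), and of 18, 12 were higher and 1 lower in 1-day members (median 1.57). Of 10 G2/M genes 8 were higher and 0 lower in 7-day members, and of 8, 6 were higher and 0 lower in 1-day members. Over all genes measured, 20.8% were higher in 7-day members and 23.9% in 1-day members. Pgk1, phosphoglycerate kinase, had 882 CPM in 7-day members, 868 CPM in 1-day members and 86.7 CPM in bladder, and Eno1, enolase, had 841 CPM, 723 CPM and 95.2 CPM. Both genes were also abundant in non-endothelial cells of the 7-day library, with 471 and 622 CPM. Vegfa, the main ligand induced by low oxygen, had 5.85 CPM, 14.4 CPM and 23.0 CPM and was lower than in bladder.

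The promoters of Pgk1 and Apln are given as examples of a search for ACGTG, the core of the hypoxia response element. Bases outside the window shown were not searched. The 250 bases before each start are RefSeq sequence on GRCm38.p6, 5′ to 3′ on the gene strand in lower case, with each match on either strand in capitals.
Pgk1, chrX:106186850-106187099, plus strand: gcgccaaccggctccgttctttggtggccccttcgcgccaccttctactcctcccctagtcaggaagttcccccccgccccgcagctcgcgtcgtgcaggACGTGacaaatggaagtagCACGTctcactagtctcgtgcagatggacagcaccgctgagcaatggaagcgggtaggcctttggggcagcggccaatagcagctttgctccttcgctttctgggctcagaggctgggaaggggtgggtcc
Apln, chrX:48034854-48035103, minus strand: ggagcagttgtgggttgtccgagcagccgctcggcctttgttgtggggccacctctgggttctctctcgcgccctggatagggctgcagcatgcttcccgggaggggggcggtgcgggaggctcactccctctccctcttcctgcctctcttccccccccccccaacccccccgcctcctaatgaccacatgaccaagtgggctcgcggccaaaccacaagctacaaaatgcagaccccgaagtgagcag
Pgk1 had 2 matches, which began 150 and 131 bases before the start, and Apln had 0 in this window. Of 19 genes of the hypoxia and glycolysis list with a promoter entry, 12 held the motif in any of their entries (63.2%). Over all 32851 promoter entries, 5444 held it (16.6%). The first share counts genes, which can have several entries, and the second counts entries, so they are in unlike units. The match counts letters and says nothing of binding.

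Endothelial identity and matrix genes stood between these groups. Of 18 pan-endothelial genes, 1 was higher and 4 lower than in bladder in 7-day members (median 0.08), and 2 were higher and 7 lower in 1-day members (median -0.28). Over all genes the shares higher were 20.8% in 7-day and 23.9% in 1-day members, and the shares lower were 20.2% and 23.1%. The pan-endothelial list holds Pecam1, Cdh5 and Egfl7, which chose the cells of both sides. Cldn5, a tight junction protein, had 686 CPM in 7-day members, 382 CPM in 1-day members and 1247 CPM in bladder, while Eng, a TGF-beta co-receptor, had 452 CPM, 484 CPM and 457 CPM. Of 14 basement membrane genes, 7 were higher and 3 lower in 7-day members, and of 13, 3 were higher and 4 lower in 1-day members. The 1-day count of higher genes was near the share over all genes. Sparc, a matrix protein of remodelling tissue, had 5855 CPM in 7-day members, 3929.6 CPM in 1-day members and 1977 CPM in bladder, and 5236 and 6032 CPM in non-endothelial cells at 7 days and 1 day. Col4a1, a collagen of the basement membrane, had 938 CPM, 705 CPM and 443 CPM in 7-day members, 1-day members and bladder. The part of free RNA in both levels was not tested.

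Resting vessel genes were lower than in bladder at both ages. Over all genes measured, 20.2% were lower in 7-day members and 23.1% in 1-day members. Of 15 capillary and lipid uptake genes, 13 were lower and 1, Kit, was higher at each age, with medians of -3.93 in 7-day and -5.29 in 1-day members. Aqp1, a water channel, had 10.5 CPM in 7-day members, 3.88 CPM in 1-day members and 1343 CPM in bladder, and Cd36, a fatty acid transporter, had 8.01 CPM, 2.06 CPM and 511 CPM. Of 10 venous genes 9 were lower at each age. Klf2, a factor known to follow blood flow, had 145 CPM at both ages and 983 CPM in bladder. Of 12 Notch genes, 9 were lower and 1 higher in 7-day members and 10 lower and 0 higher in 1-day members. Inflammatory genes were lower for 10 of 13 in 7-day and 10 of 12 in 1-day members, against the direction of Ccl2. Sele, Selp, Icam1, Ackr1 and Lrg1 were counted as lower in both the venous and the inflammatory list, so these counts are not separate. Vcam1, an adhesion molecule for leukocytes, had 264 CPM, 481 CPM and 132 CPM, and Icam1, another, had 106 CPM at both ages and 389 CPM in bladder. Interferon genes were lower for 8 of 11 at each age, and antigen presentation genes for 6 of 6 in 7-day and 4 of 6 in 1-day members.

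Immediate early genes were lower for 16 of 16 at each age, against 20.2% of all genes in 7-day and 23.1% in 1-day members. Their medians were -2.75 in 7-day and -3.02 in 1-day members. Junb, one of them, had 347 CPM in 7-day members, 237 CPM in 1-day members and 2311 CPM in bladder. In the 22 7-day members not near the 1-day library it had 1291 CPM. These genes are known to respond to tissue handling, and the part of handling in any contrast with bladder was not tested.

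**Figure D5:**
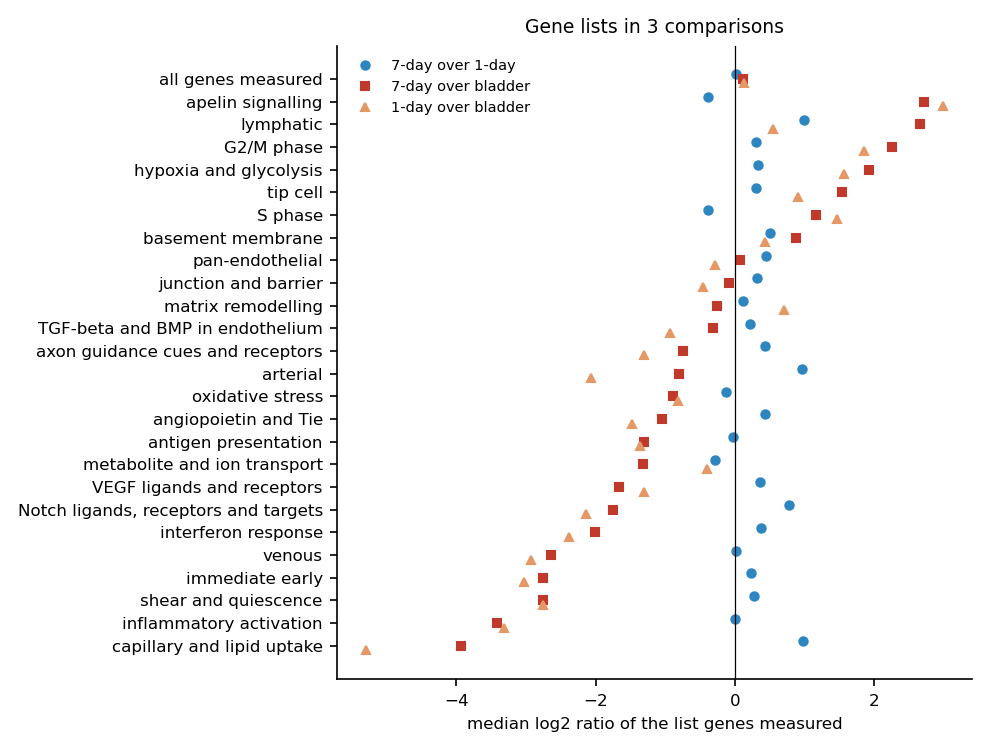
Median log2 ratio of the measured genes of 25 lists and of all genes measured; squares are 7-day members over bladder blood endothelium, triangles 1-day members over the same bladder cells, and circles 7-day over 1-day members. Hypoxia and glycolysis, tip cell and cell cycle lists lie right of 0 against bladder and capillary, inflammatory and immediate early lists left of it, while the circles lie between -0.39 and 0.99.

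Within the assembloids, the other endothelial cells were a different set at each age. At 1 day they were 75 cells, and at 7 days 606, of which 73 were near the 1-day library. The rule divided members from these cells by Apln and Pgf, so their differences are a description. In 1-day members 275 of 6526 genes (4.21%) were higher and 514 (7.88%) lower than in the other 1-day endothelial cells. In 7-day members 436 of 6644 (6.56%) were higher and 925 (13.9%) lower than in all other 7-day endothelial cells, and 230 of 6445 (3.57%) were higher and 409 (6.35%) lower with both sides near the 1-day library. All 6 lymphatic genes measured were lower in members by the last comparison and at 1 day. Prox1, the factor that defines lymphatic cells, had 13.0 CPM in 7-day members near the 1-day library and 236 CPM in the other endothelial cells there, and 10.5 CPM in 1-day members and 213 CPM in the other 1-day endothelial cells. Cxcl12, a chemokine of arterial and tip cells, had 717 CPM in 7-day members near the 1-day library, against 126 CPM in the other endothelial cells there, and 949.6 CPM in 1-day members, against 155 CPM in the other 1-day endothelial cells. Angpt2 did not follow Apln in this comparison, with 942 CPM in members and 1032 CPM in other endothelial cells at 7 days near the 1-day library, and 939.6 CPM in members and 1064 CPM in other endothelial cells at 1 day. Summed over cells, G2/M genes were lower in members for 11 of 13 at 7 days near the 1-day library and for 10 of 13 at 1 day. Per cell at 1 day, the median of their sum was 0.845 UMIs per 10,000 in members and 0.866 in the other endothelial cells. The 90th percentile was 7.33 and 44.1, so these 1-day groups were alike at the median and apart in their highest cells. Against all other 7-day endothelial cells, 0 of 10 G2/M genes were lower and 0 higher (median -0.05), and 5 of 6 lymphatic genes were lower.

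Members differed among themselves in which ligand they carried. Both ligands had a UMI in 198 of 295 7-day members (67.1%, 61.4 to 72.5) and in 331 of 399 1-day members (83.0%, 78.9 to 86.5). Apln without Pgf was seen in 35 7-day members (11.9%) and 28 1-day members (7.02%), and Pgf without Apln in 62 (21.0%) and 40 (10.0%). Cells with 1 ligand were shallower, with median depths of 7634 and 7395 UMIs at 7 days, against 10928 UMIs in cells with both, and the part of depth in the split was not tested. Esm1 was higher in members with Apln and no Pgf than in both other classes. At 7 days it had 791 CPM in those cells, 221 CPM in members with both ligands and 28.4 CPM in members with Pgf and no Apln, and at 1 day 775, 306 and 151 CPM in the same classes. Plvap had 779.8, 336 and 278 CPM in these classes at 7 days and 1499, 782 and 435 CPM at 1 day. Prox1 and Lyve1 were highest in members with Pgf and no Apln, with 114 and 391 CPM at 7 days. The 7-day members with both ligands had 4.43 and 14.5 CPM, and those with Apln and no Pgf 3.73 CPM and 0 UMIs. Without the 22 cells the 42 7-day members with Pgf and no Apln had 71.4 CPM of Prox1 and 303 CPM of Lyve1. Their Gpihbp1 level was 22.1 CPM, against 128 CPM in all 62 7-day members with Pgf and no Apln and 327 CPM in 7-day members with both ligands.

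Transcripts of other cell types were present in members, and those of smooth muscle were not low. The 8 smooth muscle markers summed to 1549 CPM in 7-day members, 2341 CPM in 1-day members and 599 CPM in bladder blood endothelium, against 11911, 15635 and 2083 CPM in the non-endothelial cells of each library. The 10 fibroblast markers summed to 479, 451 and 315 CPM in members and bladder in the same order, against 9067, 7337 and 6888 CPM in non-endothelial cells. The 8 pericyte markers summed to 77.6 CPM in 7-day members, 15.3 CPM in 1-day members and 369.9 CPM in bladder. The highest single smooth muscle marker had 752 CPM in 7-day members and 1119.6 CPM in 1-day members, where Cdh5 had 966 and 710.2 CPM. After thinning, a UMI of the smooth muscle marker Acta2 was in 53.9% of 7-day members, 71.5% of 1-day members and 18.0% of bladder cells. In cells with no endothelial UMI the Acta2 shares were 73.3% at 7 days and 92.2% at 1 day. Myeloid, lymphocyte and red blood cell markers summed to at most 40.2 CPM in members at either age, and Ptprc was at 0 UMIs in members of both ages. The part of these transcripts in the results above was not tested.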

How the data were processed

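Single cells of 7-day assembloids, 1-day assembloids and mouse bladder were measured with the 10x 3′ kit, version 3, with 1 library per group. The deposited matrices hold whole UMI counts per gene and barcode, made by the authors with Cell Ranger per the submitters' processing notes (version 3.1.0 per the file headers), with a joint mouse and human gene set, and the notes name the builds mm10, GRCh38 and hg38. Barcodes with at least 90% mouse UMIs, at least 500 mouse genes and under 20% mitochondrial UMIs were kept; 3 libraries gave 8374 (7-day), 8538 (1-day) and 7013 (bladder) cells. Doublets were scored per library with Scrublet in scanpy 1.11.5 and kept, with an alternative that left them out.

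Counts were summed over the cells of a group and scaled to CPM, and log2 ratios had 0.5 counts added to each sum. Genes reaching 20 CPM in 1 of both groups compared counted as measured, and a 2-fold ratio as past the size rule. Intervals are exact Poisson for sums and ratios and Clopper-Pearson for shares, and cover counting error only. No test between groups was made, since cells are not replicates. For nearest neighbours, 30 principal components of 2000 variable genes were used, and the genes of the rule were not left out. Shares of cells with a UMI were taken after thinning each cell to 5000 UMIs.

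Named genes were those of the rule and the given markers, the 8 highest and 8 lowest ratios with at least 100 CPM in each age and bladder contrast, the 6 highest and 6 lowest against other endothelial cells, and up to 5 genes of each list by level; others are named as chosen after their values were seen, or where a count or a list turns on them. The members, the 34 gene lists and the tests were chosen with earlier results of these data known. Gene positions are from GENCODE on mm10, and promoter sequences from RefSeq on GRCm38.p6. The summing and interval steps were tested on simulated data. Neighbours came from scikit-learn 1.9.0, intervals from scipy 1.17.1 and plots from matplotlib 3.10.9, with pandas 2.3.3 and numpy 2.4.6 under Python 3.11.15.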

Additional observations from a re-analysis of the deposited data

Results flagged for a closer look

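In 5 genes the members stood on opposite sides of the other endothelial cells of their own library at 7 days and at 1 day, and the difference between the ages was not tested. The log2 ratio of Hmox1 was -1.81 at 7 days and 1.97 at 1 day. That of Flt1 was -1.81 at 7 days and 1.11 at 1 day, and that of Ddit3, a stress-induced regulator, was -1.33 at 7 days and 1.04 at 1 day. Cd36 had -4.88 at 7 days and 1.69 at 1 day, and Sele, an adhesion molecule of activated endothelium, -4.14 at 7 days and 2.20 at 1 day. Cd36 was at 2.06 CPM in 1-day members and at 0 UMIs in the other 1-day endothelial cells, and Sele at 2.97 CPM and 0 UMIs, so both 1-day ratios depend on the counts added. With both 7-day groups near the 1-day library, the 7-day ratios were 0.36 for Hmox1, 0.63 for Flt1, -0.46 for Ddit3, -0.07 for Cd36 and 1.72 for Sele. The mix of bladder-like cells in the 7-day library moved with these ratios, and its part was not tested further.

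Human barcodes with endothelial transcripts were counted outside the mouse comparisons. There were 45 in the 7-day library and 65 in the 1-day library, against 0 in bladder. APLN was at 60.6 CPM in the 7-day barcodes and 90.7 CPM in the 1-day barcodes, and PGF at 84.4 and 67.2 CPM.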

How the results depend on the processing

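No paired analysis was possible because each group had 1 library. Of 98 alternative values of the counts and shares, 79 stayed within 1.5 times or within the interval of the value reported. A minimum of 100 CPM tests fewer genes and gave 44 genes past 2-fold between 7-day and 1-day members, 1028 between 7-day members and bladder, 1178 between 1-day members and bladder, 461 and 198 against other endothelial cells at 7 days and 1 day, and 15 and 114 list genes between the ages and between 1-day members and bladder. With 7-day cells near the 1-day library, 639 genes were past 2-fold against other endothelial cells, in place of 1361, and the member share was 6.02%, above the 4.67% at 1 day, in place of 3.52%, below it. That share was 2.89% with Apln and Pgf at 6 per 10,000 or more and 4.51% with at least 1500 genes. At 2500 UMIs the 7-day and 1-day shares with a UMI were 67.0% and 78.4% for Apln, 65.6% and 79.9% for Pgf, 89.2% and 84.3% for Cdh5, and 22.6% and 13.4% for Dll4. Between the ages, Krt15 turned to 0.32 without doublets, and Upk1a to -0.46 near the 1-day library, -1.33 with the stricter Apln and Pgf limit and -0.54 in cells with a Y UMI and no Xist UMI; the cause was not tested. Of 7-day genes past 2-fold against other endothelial cells, 32.0% were higher, against 46.4% with a mean of per-cell CPM. At 1 day 34.9% were higher, against 16.3% with 5 counts added. Of 48 named genes past 2-fold between the ages, 35 were so under every alternative run, and Plvap, Igfbp3, Gja4, Gja5 and Rgcc were among the 13 that were not. Against bladder, 111 of 125 were so in 7-day members and 118 of 126 in 1-day members. Flt4, Tie1 and Col4a1 were among the 14 that were not at 7 days, and Nrarp and Nupr1 among the 8 at 1 day. With 1 library per group, differences between libraries and between conditions cannot be told apart. The 75 other 1-day endothelial cells limit every ratio against them.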
